A study of Mus musculus with 4 samples.

Results

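Of the 15635 RIF1 peaks listed on mouse autosomes, 393 (2.51%, Wilson 95% interval 2.28 to 2.77) lay at the promoter of a noncoding RNA gene and at no coding promoter. A peak was counted here where it overlapped the 1 kb on either side of a transcript 5′ end of a gene that GENCODE M1 does not type as protein-coding, and overlapped no such window of a protein-coding gene. The list holds 16332 intervals in all, of which the 289 intervals of 50 kb or more were treated as domains and not as peaks, and peaks on the sex chromosomes were left aside. For comparison, 6306 autosomal peaks (40.3%) met the promoter of 1 coding gene, 835 (5.34%) met 2 or more coding promoters and 8101 (51.8%) met no promoter. A further 644 autosomal peaks met a noncoding and a coding window alike and are therefore not among the 393.

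The peaks come from chromatin immunoprecipitation and sequencing of RIF1 in primary splenic B cells of the mouse, which asked where this replication timing factor occupies the genome. Cells of 2 genotypes were used with 2 libraries each: Rif1FH/FH, in which the endogenous protein carries a FLAG-HA tag, and C57BL/6 (Rif1WT/WT), which has no tag and so controls for the anti-HA antibody. Cells of both genotypes were selected from spleen with anti-CD43 MicroBeads, cultured for 72 h with 5 µg/ml of lipopolysaccharide (LPS) and 5 ng/ml of interleukin-4 (IL-4), and crosslinked. The number and age of the mice behind each library are not given in the sources used here. The deposited list gives only the chromosome, start and end of intervals called in both Rif1FH replicates, so it has no height, score, depth or value per library, the Rif1WT libraries were not analysed here, and no replicate error can be given. Strong occupancy in few cells and weak occupancy in many cannot be told apart from such a list.

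RIF1 is a large chromatin-bound protein known for setting the time at which replication origins fire and for protecting DNA breaks from resection during antibody class switching in B cells. Noncoding RNA genes are transcribed without giving a protein. They include long intergenic RNAs (lincRNAs) and antisense RNAs made by RNA polymerase II, hosts that are processed into microRNAs (miRNAs) or small nucleolar RNAs (snoRNAs), and small RNAs such as U6 and the RNA of RNase P that RNA polymerase III makes from compact genes. The 5′ end of a small RNA in the annotation is that of the processed molecule, which need not be where its primary transcript starts. A CpG-rich promoter is usually an unmethylated stretch, typical of broadly used genes, and it was counted here where any 200 bp window of a peak had a GC content of at least 50% and an observed over expected CpG ratio of at least 0.6.

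The mm9 reference sequence around some annotated 5′ ends is shown here, and its CpG content differed widely. Each stretch runs 5′ to 3′ on the gene's strand, with 75 bases before the 5′ end and 75 from it on, and with CpG dinucleotides in capitals. The first 4 belong to long noncoding RNA genes with a peak over their 5′ end.
Mir17hg, chr14:115442026-115442175, + strand: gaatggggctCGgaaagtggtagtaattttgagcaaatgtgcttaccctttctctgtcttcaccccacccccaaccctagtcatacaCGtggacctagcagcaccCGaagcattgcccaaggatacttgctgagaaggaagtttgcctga
Pvt1, chr15:61869541-61869690, + strand: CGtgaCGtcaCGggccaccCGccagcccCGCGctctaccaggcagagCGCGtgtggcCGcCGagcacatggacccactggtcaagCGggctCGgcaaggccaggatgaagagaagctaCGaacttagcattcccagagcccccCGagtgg
Snhg7, chr2:26495676-26495825, - strand: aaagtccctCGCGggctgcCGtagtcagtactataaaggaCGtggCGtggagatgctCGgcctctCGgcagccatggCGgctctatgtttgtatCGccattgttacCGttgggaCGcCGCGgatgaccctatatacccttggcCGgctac
Dleu2, chr14:62301088-62301237, - strand: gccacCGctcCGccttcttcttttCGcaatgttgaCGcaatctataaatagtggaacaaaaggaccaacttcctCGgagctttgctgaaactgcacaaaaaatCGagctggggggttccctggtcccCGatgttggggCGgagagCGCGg
In these 150 bases Pvt1 and Snhg7 held 14 CpGs each and Dleu2 held 10, whereas Mir17hg held 3. The peak at Mir17hg was nevertheless CpG-rich by the criterion above, with an observed over expected ratio of 0.552 over its 1100 bp.

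Small RNA genes, an antisense RNA and immunoglobulin segments are shown next as further examples of unlike composition.
Telomerase-vert, chr3:30494605-30494754, - strand: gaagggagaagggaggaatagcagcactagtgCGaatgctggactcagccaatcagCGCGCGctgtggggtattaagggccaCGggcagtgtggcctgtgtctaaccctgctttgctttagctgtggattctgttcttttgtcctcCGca
U11, chr4:131826054-131826203, - strand: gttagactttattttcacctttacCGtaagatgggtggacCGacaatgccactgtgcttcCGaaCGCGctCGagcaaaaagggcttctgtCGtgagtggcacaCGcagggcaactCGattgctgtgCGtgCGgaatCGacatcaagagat
RNaseP_nuc, chr8:71923549-71923698, + strand: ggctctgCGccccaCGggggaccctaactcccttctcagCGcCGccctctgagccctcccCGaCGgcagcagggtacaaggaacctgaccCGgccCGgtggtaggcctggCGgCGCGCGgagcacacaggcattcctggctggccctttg
Gm12493, chr4:44980566-44980715, + strand: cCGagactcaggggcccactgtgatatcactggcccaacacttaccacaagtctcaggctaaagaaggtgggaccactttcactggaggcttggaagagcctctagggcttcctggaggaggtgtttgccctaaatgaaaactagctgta
Igkc, chr6:70676354-70676503, + strand: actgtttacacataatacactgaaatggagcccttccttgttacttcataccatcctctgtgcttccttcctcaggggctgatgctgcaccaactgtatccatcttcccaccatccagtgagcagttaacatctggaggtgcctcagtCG
Igkv4-58, chr6:69450465-69450614, - strand: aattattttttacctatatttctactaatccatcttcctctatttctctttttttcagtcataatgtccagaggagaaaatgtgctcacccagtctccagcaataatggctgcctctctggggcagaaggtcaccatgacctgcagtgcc
U11, named for the minor spliceosome RNA, and RNaseP_nuc, named for the RNA subunit of nuclear RNase P, had 12 CpGs each in 150 bases. Telomerase-vert, named for the template RNA of telomerase, had 6. These entries had no RefSeq match by symbol, and whether each is the functional gene of that name was not tested. Gm12493, an antisense RNA with the widest of all 393 peaks, had 1 CpG. Igkc, the constant segment of the kappa light chain, had 1 CpG and the variable segment Igkv4-58 had 0. The 5′ ends of these segments are those of the annotation and need not be where a transcript starts.

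The miRNA genes at these peaks encode mature RNAs that pair with targets mainly through the seed, which is bases 2 to 8 and stands in capitals below. Of the 30 miRNA-type genes at a peak, 16 matched a RefSeq miRNA by symbol or synonym, and these give 28 mature names with 24 different seeds (sequences from RefSeq, table of GRCm38.p6). The 8 names that share a seed with another are shown as 4 pairs, with miR-18a-5p after its cluster partners.
mmu-miR-17-5p: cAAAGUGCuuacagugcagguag
mmu-miR-20a-5p: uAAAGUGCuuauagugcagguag
mmu-miR-18a-5p: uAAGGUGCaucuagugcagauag
mmu-miR-19a-3p: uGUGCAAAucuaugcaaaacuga
mmu-miR-19b-3p: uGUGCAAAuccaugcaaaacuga
mmu-miR-132-3p: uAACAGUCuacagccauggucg
mmu-miR-212-3p: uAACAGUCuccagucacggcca
mmu-miR-34b-3p: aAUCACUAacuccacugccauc
mmu-miR-34c-3p: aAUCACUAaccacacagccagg
In each pair both genes lay at the same peak: Mir17 with Mir20a and Mir19a with Mir19b-1 at the Mir17hg peak, Mir132 with Mir212, and Mir34b with Mir34c. Further miRNA genes with a peak include let-7i, miR-148a and miR-9, whose best known arms read as follows.
mmu-let-7i-5p: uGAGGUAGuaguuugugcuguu
mmu-miR-148a-3p: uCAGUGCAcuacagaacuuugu
mmu-miR-9-5p: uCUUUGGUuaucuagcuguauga

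The 393 peaks met the windows of 423 noncoding genes in 435 pairs of peak and gene. Most (357) met 1 noncoding gene, 33 met 2, 2 met 3 and the Mir17hg peak met 6. A noncoding 5′ end lay inside the peak for 279 peaks (71.0%), and for the others it lay within the 1 kb that the definition allows. At the edge of that definition, 6 of the counted peaks had the nearest 5′ end in the last 100 bp of the window, at most 972 bp away, while 12 peaks with one in the next 100 bp, from 1003 bp on, were not counted.

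As a background, 24.2% of all 34653 autosomal genes had a peak of any class at a 5′ end. By this measure 1069 of 13235 noncoding genes had one (8.08%). For lincRNA genes it was 434 of 1232 (35.2%), and the other noncoding types ranged from 2.49% to 12.1%. The shares that follow count only peaks at no coding promoter, so they cannot be set against the 24.2%. Of the noncoding genes, 11309 were eligible in the sense that at least 1 of their 5′ ends has a window free of coding windows, and 409 of them had one of the 393 peaks. That is 3.62% (Wilson interval 3.29 to 3.98), or 4.21% when the 1604 eligible genes inside a wide interval, where peaks are not listed, are left out. The Wilson intervals here and below cover counting error only, and neighbouring genes that share a peak are not independent.

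Gene types differed widely around the 3.62% of all eligible genes. Among lincRNA genes 106 of 615 had a peak (17.2%, 14.5 to 20.4), and among genes typed as processed transcripts, which hold most antisense RNAs, 134 of 1864 did (7.19%, 6.10 to 8.45). The small RNA types had lower shares: 28 of 1275 miRNA genes (2.20%, 1.52 to 3.16), 28 of 1283 snoRNA genes (2.18%, 1.51 to 3.14) and 24 of 1247 small nuclear RNA genes (1.92%, 1.30 to 2.85). Pseudogenes were lowest with 56 of 3824 (1.46%, 1.13 to 1.90). The shares of misc_RNA genes (2.78%) and rRNA genes (3.10%) had intervals that include 3.62%. The ranking is a description and was not tested. Only unique alignments were kept, which can leave repeated sequence without reads, and the part of this in the shares was not tested either. Base composition differed with the presence of a peak in most types. The 300 bp at the 5′ ends of eligible lincRNA genes had a median GC content of 56.7% with a peak and 49.7% without. For all eligible noncoding genes these were 52.0% and 45.7%, which mix types with unlike shares. At rRNA genes they were 45.7% and 44.7%, and immunoglobulin or T cell receptor segments went the other way, with 43.5% and 45.7%. For coding genes the medians were 60.9% with a peak and 54.4% without. The part of composition in the shares was not tested.

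**Figure D1:**
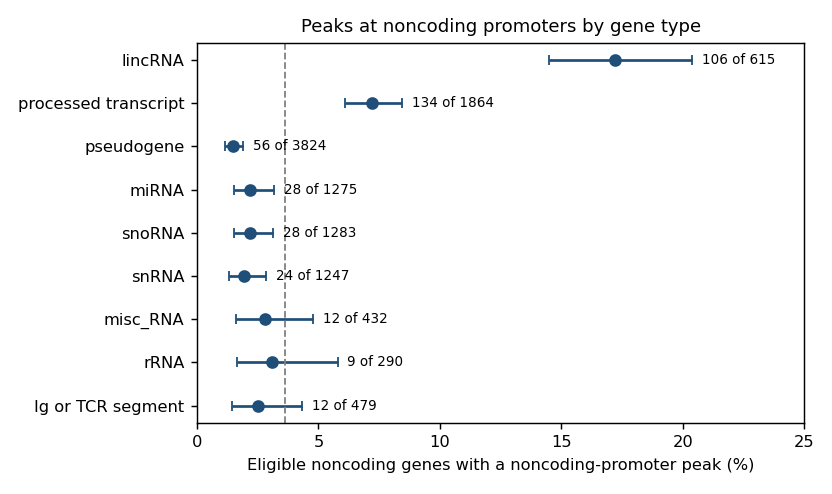
Share of eligible noncoding genes with a noncoding-promoter peak (x axis, %) for each gene type (y axis). Points are shares, bars are Wilson 95% intervals and the dashed line marks the 3.62% of all eligible genes. The lincRNA share of 17.2% and the processed transcript share of 7.19% lie to the right of the line, and the intervals of pseudogenes, miRNAs, snoRNAs and small nuclear RNAs lie to its left.

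Of the 14 long noncoding RNAs listed for known nuclear or regulatory roles that the annotation holds under the listed symbol, 5 had one of the 393 peaks (35.7%). All 14 are of the lincRNA or processed transcript type, for which the shares above were 17.2% and 7.19%, beside 3.62% of all eligible genes. The list was drawn up with earlier results of these data known and was not limited to eligible genes. Its share is therefore a description and no test against the others. The 5 with a peak are Dleu2, Pvt1, Mir17hg, Airn and Sox2ot. Tug1 had a peak shared with a coding promoter, Malat1, Neat1 and Nespas lay in wide intervals, and Miat, Meg3, H19, Rmst and Dnm3os had no listed peak. The nearest peak to H19 lay 1.81 kb away. The list has 33 symbols, and matching the rest through other RefSeq names, which was done after the values above were seen, added 9 autosomal noncoding genes and brought the count to 7 of 23 (30.4%). The added genes with a peak over the 5′ end were 1700020I14Rik (Oip5os1, also called Cyrano) with 1124 bp and 2410004N09Rik (Epb41l4aos) with 2706 bp. Of the other 7, Hotairm1 had a peak shared with a coding promoter, Mir22hg, Morrbid and Trp53cor1 lay in wide intervals, and Hotair, Hottip and Halr1 had no listed peak. Firre is on the X chromosome, Norad is annotated as protein-coding under its older name, and the remaining symbols were not analysed here.

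Dleu2, the host RNA of the miR-15a and miR-16-1 tumour suppressor cluster that is lost in chronic lymphocytic leukaemia, had 2 peaks. The peak over its outer 5′ end was the widest at any lincRNA gene (chr14:62298928-62306757, 7830 bp, GC 54.5%, CpG observed over expected 0.644), and its midpoint lay 1681 bp upstream. A second peak of 2234 bp at chr14:62267253-62269486 covered an internal 5′ end. Both intervals met the CpG criterion.

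Pvt1, a long RNA transcribed downstream of the Myc oncogene and a recurrent translocation partner in B cell tumours, had a peak of 2558 bp (chr15:61868343-61870900) whose midpoint fell 6 bp from an annotated 5′ end. Among lincRNA genes with a given name, this midpoint was the nearest to a 5′ end. The nearest coding 5′ end was that of Myc, 50.6 kb away. The peak is 1 of 3 on chromosome 15, which had the fewest of the 393 peaks of any autosome.

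Airn, the antisense RNA that silences imprinted Igf2r from the paternal chromosome, had a CpG-rich peak of 1416 bp (chr17:12934158-12935573) inside an Igf2r intron. The nearest annotated 5′ end of any Igf2r transcript, which need not be its main promoter, was 8.80 kb away. The Sox2ot peak of 820 bp lay 639 bp from the nearest Sox2ot 5′ end, and so did not cover it. Among 8 autosomal noncoding snoRNA host genes, which carry snoRNAs in their introns, 2 had one of the 393 peaks (25.0%, beside 3.62% of all eligible noncoding genes and 17.2% of lincRNA genes). These were Snhg4 (chr18:35712007-35713906, 1900 bp) and Snhg7 (chr2:26494825-26496214, 1390 bp), both with a peak over the 5′ end. This list too was drawn up with earlier results of these data known, so the share is a description. The Snhg3 peak was shared with a coding promoter, Snhg1 and Snhg5 lay in wide intervals, and Gas5, Snhg12 and Snhg9 had no listed peak. Snhg11 is annotated as protein-coding.

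Other wide peaks lay at less familiar genes. Gm12493, antisense in type, had the widest peak of all 393 (chr4:44974662-44984766, 10105 bp), with Grhpr as the nearest coding gene at 14.6 kb. A430104N18Rik (chr11:87561295-87569233) had 7939 bp that covered its 5′ end, and Gm16619 and Gm15518, which point away from each other, shared 6066 bp (chr16:49796308-49802373) 56.4 kb from Cd47, which encodes a surface signal against engulfment. Gm16046 had 5386 bp within an intron of Tcte2. Peaks of 4 kb or more made up 19 of the 393 (4.83%), against 179 of 6306 peaks at 1 coding promoter (2.84%) and 178 of 8101 at no promoter (2.20%). Since a wider peak is more likely to meet any window, widths are given as a description. The median was 1428 bp (quartiles 967 and 2148) at noncoding promoters, 1563 bp at 1 coding promoter and 1187 bp at no promoter.

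**Figure D2:**
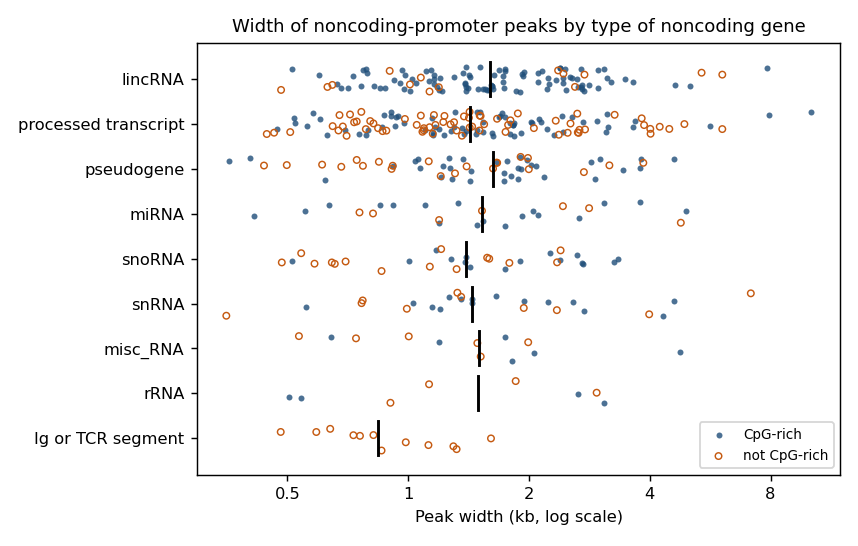
Width of each noncoding-promoter peak (x axis, kb, log scale) by type of noncoding gene (y axis), with 1 point for each peak and type it meets. Filled points are CpG-rich, open points are not, and vertical bars mark medians. The median was 1598 bp for lincRNA genes and 838 bp for immunoglobulin or T cell receptor segments, where none of the 12 peaks was CpG-rich.

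Among the listed autosomal B cell miRNA genes, the miR-17 to miR-92 cluster was the case with a peak within 1 kb of hairpin starts. Mir17hg, its host gene, promotes B cell survival through its miRNAs, and a peak of 1100 bp (chr14:115441428-115442527) covered its 5′ end with the midpoint 123 bp upstream. The windows of Mir17, Mir18, Mir19a, Mir20a and Mir19b-1 met this peak, at distances of 366 bp for Mir17 to 1000 bp for Mir19b-1, and the last hairpin of the cluster, Mir92-1, lay 1.12 kb away and so fell outside. All 5 miRNA genes of the list with a peak, out of 32 autosomal entries (15.6%, beside 2.20% of eligible miRNA genes and 3.62% of all eligible noncoding genes), thus rest on 1 interval. The list was drawn up with earlier results of these data known, so the share is a description. Another 7 entries lay in wide intervals (Mir150, Mir146, Mir34a, Mir210 and the Mir106b, Mir93 and Mir25 cluster), and 20 had no listed peak.

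Several entries without a peak lay just past the 1 kb limit. Mir142, an miRNA of all blood cells, lay 1.13 kb from the wide A430104N18Rik peak and within that gene, Mir21 lay 1.35 kb from a peak, and Mir125b-2 lay 1.47 kb from one. By contrast the nearest peak to the Mir155 hairpin, whose miRNA is needed for the germinal centre response, was 20.6 kb away. The Mir181, Mir29 and Mir15b with Mir16-2 genes lay between 27.1 and 63.6 kb from a listed peak. In between were Mir125a at 3.94 kb, Mirlet7a-1 at 7.03 kb, Mirlet7d at 9.19 kb and Mir30a at 14.8 kb. Mir223 is on the X chromosome, and Mir15a, Mir16-1, Mir125b-1, Mir191 and Mirlet7f-1 are not in the annotation by these symbols.

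Outside that list, miRNA genes at a peak were of diverse kinds. Mir34b and Mir34c, targets of the p53 pathway, shared a CpG-rich peak of 634 bp, and Mir132 and Mir212 shared one of 1192 bp that also met the 5′ end of 1700016P03Rik. Mir193 and Mir760 had their hairpin start 4 and 54 bp from the midpoint of CpG-rich peaks of 2667 and 1742 bp. Mirlet7i and Mir148a had peaks upstream, with midpoints 1672 and 925 bp before the hairpin. Over all pairs, the annotated 5′ end was inside the peak for 11 of 31 miRNA pairs (35.5%) and for 99 of 114 lincRNA pairs (86.8%). Of the 25 peaks at miRNA genes, 18 were CpG-rich (72.0%, 52.4 to 85.7). The widest of them were at clone-named entries: AC106841.1 with 4938 bp, and AC153556.1 with 4781 bp, 64.1 kb from Myb, a transcription factor of blood progenitors.

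C130071C03Rik, the host gene of Mir9-2, was 1 of 12 genes with 2 peaks. Its peaks of 2830 and 3076 bp lay at different 5′ ends of the gene, and the second one also covered Mir9-2. Together with a peak at Gm17547, these were 3 of the 393 peaks whose nearest coding gene was Mef2c, a transcription factor of B cells, at 197 to 215 kb. Rab11fip4 was likewise the nearest coding gene of 3 peaks, and Tex14 of 7.

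Of the Tex14 peaks, 6 were at copies of the U3 RNA, which guides ribosomal RNA processing. Of the 24 autosomal genes named U3, 4 had a peak (16.7%), all near Tex14 on chromosome 11. Beside this stand 2.18% of eligible snoRNA genes and 3.62% of all eligible noncoding genes, while the 24 were not limited to eligible genes. Only unique alignments were kept, and the part of this in the U3 count and layout was not tested. None of these U3 copies had its 5′ end inside a peak. For 2 of the 4 copies peaks lay on either side, as at chr11:87273158-87275546 and chr11:87275992-87276532 around the copy at chr11:87275788-87276001. The other 2 had 1 peak each, upstream of the 5′ end. A copy of U2 on chromosome 11, a core spliceosome RNA, had 2 peaks as well, but the upstream one of 1143 bp covered its 5′ end and the other, of 352 bp, lay downstream.

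Other small RNA names are shared by many annotated copies, and most copies had no peak. Only unique alignments were kept, so repeated sequence can lack reads, and the part of this in the counts was not tested. Of 871 autosomal genes named U6, 14 had one (1.61%, beside 1.92% of eligible small nuclear RNA genes). The 5′ end was inside it for 7 of these 14. For 7SK, the regulator of transcription elongation, 6 of 309 had a peak (1.94%, beside 2.78% of eligible misc_RNA genes), with 1 covered 5′ end. For SNORA17 it was 6 of 578 (1.04%, beside 2.18% of eligible snoRNA genes). The widest peak at a small nuclear RNA, 7145 bp on chromosome 7, met a U6 copy. Over all eligible noncoding genes the share was 3.62%, whereas the counts by name take all autosomal copies, eligible or not. These counts by name were chosen after their values were seen.

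Small RNA genes of other kinds had peaks centred close to the 5′ end. Telomerase-vert had a peak of 1814 bp (chr3:30493722-30495535) with the midpoint 50 bp from the annotated 5′ end, and U11 one of 1656 bp (chr4:131825348-131827003) at 48 bp. An entry named U12, after another RNA of the minor spliceosome, had one of 1944 bp (chr2:129140306-129142249) at 63 bp. It too had no RefSeq match by symbol, and whether it is the functional U12 gene was not tested. RNaseP_nuc had a peak of 2064 bp (chr8:71922375-71924438) with the midpoint 217 bp upstream. All 4 peaks covered the 5′ end and were CpG-rich. Among snoRNAs, SNORA9 had its midpoint at 23 bp in a peak of 2635 bp, and Scarna2, which guides modification of spliceosomal RNAs, was covered by 1176 bp. Over all snoRNA pairs, 14 of 32 had the 5′ end inside the peak (43.8%). At 5S ribosomal RNA genes, 3 of the 120 autosomal copies named 5S_rRNA had a peak (2.50%). Beside this stand 3.10% of eligible rRNA genes and 3.62% of all eligible noncoding genes.

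Antigen receptor segments count as noncoding under the definition, because GENCODE does not type them as protein-coding. Of 479 eligible segments 12 had a peak (2.51%, 1.44 to 4.33), an interval that includes the 3.62% of all eligible noncoding genes. The kappa light chain locus held 9 of these, among its 105 segments (8.57%), including Igkc (chr6:70675884-70677491, 1608 bp). The T cell receptor beta and gamma loci held 2 of 43 segments (4.65%) and 1 of 14 (7.14%). Loci were not compared by a test. None of the 142 segments of the heavy chain locus on chromosome 12 had a peak, but 81 of those lay in a wide interval, where peaks are not listed. Nor did any of the 172 segments on chromosome 14, of which 19 lay in a wide interval. In 11 of the 12 pairs the 5′ end lay inside the peak, and the median GC content of the peaks was 44.2% against 49.8% for all 393. With 0 of 12 CpG-rich (upper Wilson limit 24.2%), these peaks were CpG-poor, like the stretches shown above for Igkc and Igkv4-58. Since the 5′ ends are those of annotated segments, this need not describe the sequence of promoters.

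The type that the annotation gives was checked against RefSeq by symbol. Of the 423 genes 247 matched (58.4%). RefSeq lists 146 of these as long noncoding RNAs, 32 as pseudogenes, 10 as transcribed pseudogenes and 28 as protein-coding, so for the 29 peaks at the latter this annotation goes against the label of a noncoding promoter. They include Cebpd, a transcription factor gene that GENCODE M1 types as a pseudogene, as well as Pdf, Enho, Frat1, Chmp1b and Tmem185b, and several of these have the closest or widest peaks of their type. Among pseudogenes, all 16 peaks whose nearest 5′ end is of the plain pseudogene transcript type were CpG-rich, against 15 of 33 (45.5%) at transcribed processed pseudogenes.

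The side of the 5′ end on which peaks lay was counted as a description, since the definition itself uses a window that is symmetric about the 5′ end. Among 8320 isolated noncoding genes, with no 5′ end of another gene within 5 kb, 250 had one of the 393 peaks. The peak midpoint was upstream of the 5′ end in 123 and downstream in 127 (49.2% upstream, 43.1 to 55.4), with a median offset of 4 bp (quartiles -433 and 319). Among peaks at or above the median width the midpoint was upstream in 81 of 145 (55.9%). The isolated lincRNA genes had 35 of 65 upstream (53.8%, 41.9 to 65.4). The distance between midpoint and 5′ end was longer at small RNA genes, with a median of 782 bp, than at lincRNA genes, with 235 bp.

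**Figure D3:**
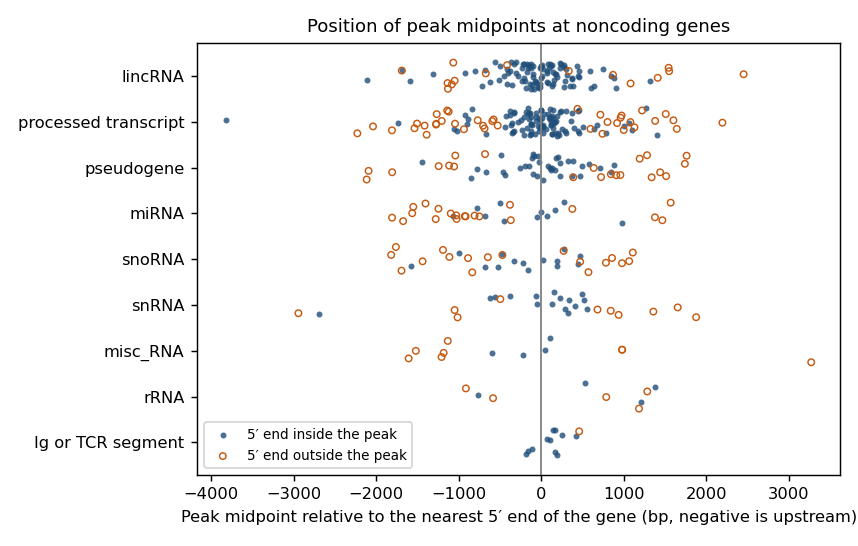
Position of the peak midpoint relative to the nearest 5′ end of the gene (x axis, bp, negative upstream in the direction of transcription) for the 435 pairs of peak and gene, by gene type (y axis). Filled points have the 5′ end inside the peak, as in 86.8% of lincRNA pairs, and open points do not, as in most pairs of miRNA, snoRNA and misc_RNA genes.

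Relative to coding genes, 275 of the 393 midpoints (70.0%) lay outside any coding gene, 95 (24.2%) in an intron and 23 (5.85%) in an exon. The nearest coding 5′ end was a median of 21.8 kb away, close to the 23.1 kb of peaks at no promoter, and 59 peaks (15.0%, 11.8 to 18.9) were within 5 kb of one. The noncoding gene was divergent from the nearest coding gene, with the 2 transcripts pointing away from each other, at 119 peaks (30.3%), convergent at 104 (26.5%) and on the same strand at 170 (43.3%). Within 5 kb of a coding 5′ end the divergent share was 18 of 59 (30.5%, 20.3 to 43.1). Where the noncoding 5′ end lay inside a coding gene, it was on the opposite strand in 74 cases and on the same strand in 40.

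**Figure D4:**
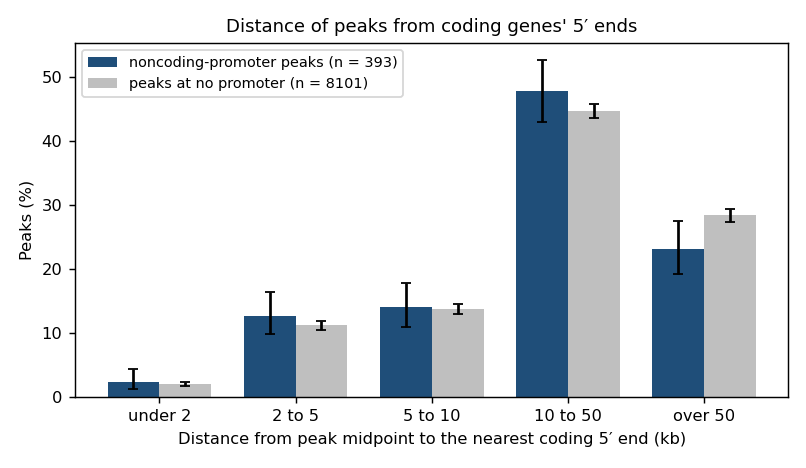
Distance from the peak midpoint to the nearest coding 5′ end (x axis, bins in kb) as a percentage of peaks (y axis) for the 393 noncoding-promoter peaks and the 8101 peaks at no promoter. Error bars are Wilson 95% intervals. The 10 to 50 kb bin holds 47.8% and 44.7% of them, and the over 50 kb bin 23.2% and 28.4%.

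The base composition of noncoding-promoter peaks, which the definition does not use, was intermediate. Over the 19 autosomes the median GC content was 49.9% ± 1.14 (SD), against 54.4% ± 0.606 for peaks at 1 coding promoter and 47.3% ± 0.732 for peaks at no promoter. The difference from coding-promoter peaks was -4.48 ± 1.21 percentage points, lower on 19 of 19 autosomes, and that from peaks at no promoter was 2.60 ± 1.16, higher on 19 of 19. In a two-sided paired permutation test with sign flips over autosomes (100000 resamples) both had p = 2.00e-05, the smallest value that the resamples can give, and 2.00e-05 after Benjamini-Hochberg adjustment over 4 tests. Observed over expected CpG gave the same order, with 0.402 ± 0.0697 at noncoding promoters, 0.627 ± 0.0166 at 1 coding promoter and 0.246 ± 0.0123 at none. The differences of -0.225 ± 0.0665 and 0.156 ± 0.0696 each held on 19 of 19 autosomes with the same p and adjusted p of 2.00e-05 in the permutation test.

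**Figure D5:**
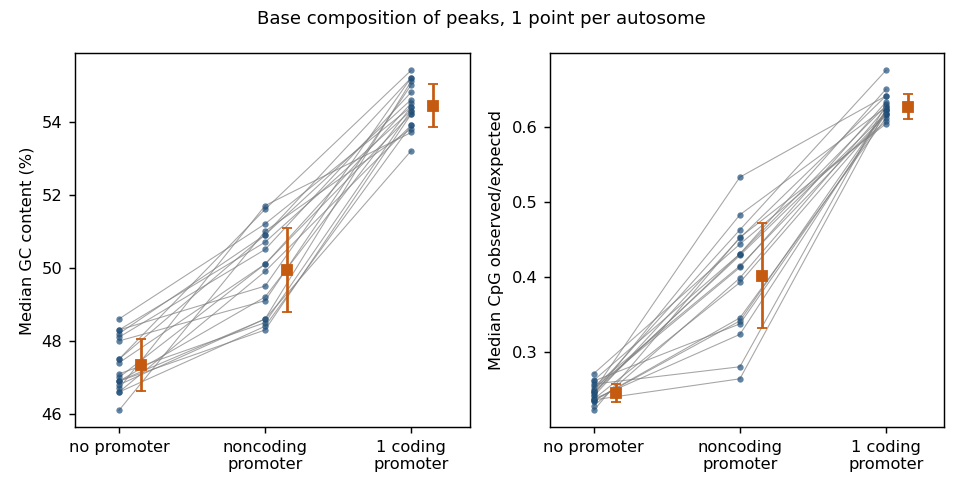
Median GC content (left, %) and median observed over expected CpG ratio (right) of peaks at no promoter, at a noncoding promoter and at 1 coding promoter (x axes). Lines join the 3 medians of an autosome, and squares with bars give the mean and SD over 19 autosomes. Noncoding-promoter peaks lie between the other classes on every autosome. The y axes do not start at 0.

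CpG-rich and CpG-poor sequence both occurred. By the CpG criterion 241 of the 393 peaks were CpG-rich (61.3%, 56.4 to 66.0), compared with 57.1% of all autosomal peaks, 90.4% at 1 coding promoter and 26.9% at no promoter, and the CpG-rich peaks had a median ratio of 0.530 and the others one of 0.202. LincRNA genes were near the coding promoters, with 96 of 110 peaks CpG-rich (87.3%, 79.8 to 92.3), and processed transcripts were lower with 70 of 137 (51.1%, 42.8 to 59.3). By the transcript whose 5′ end was nearest, 38 of 75 antisense peaks (50.7%) and 44 of 50 peaks of the processed_transcript type (88.0%) were CpG-rich. Where the 5′ end was inside the peak 69.2% of 279 peaks were CpG-rich, and where it was outside 42.1% of 114 were. Median widths were 1551 bp and 1139 bp in these groups. Since any 200 bp window suffices, a wider peak has more chances to meet the criterion. The part of width in the CpG-rich shares was not tested.

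Short promoter motifs followed the same order, as a description. In the 300 bp at the peak midpoint, searched on both strands, GGGCGG, the core of the GC box, occurred at 94 of the 393 peaks (23.9%), at 43.1% of peaks at 1 coding promoter, at 9.47% at no promoter and at 25.6% of all autosomal peaks. CCGGAAG, an ETS family core, occurred at 6.36%, against 10.8% and 3.46%, and AGGGGGCG at 3.56% against 4.87% and 1.21%. TATAAA went the other way, with 10.7% at noncoding promoters, 6.64% at 1 coding promoter and 13.4% at no promoter. The octamer ATGCAAAT occurred at 2.29%, against 1.08% and 2.67%, and GAGGAAGT, a PU.1-like ETS sequence, at 4.33%, against 2.51% and 5.51%. CCAAT, at 28.8%, and CACGTG, at 9.67%, differed little from the 29.0% and 10.1% of all peaks. AANATGGCG, a YY1-like sequence, occurred at 2.29% against 2.52% and 0.555%, and GCGCATGC, an NRF1-like sequence, at 1.27% against 2.52% and 0.790%.

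The peaks were unevenly spread over chromosomes, with 20.7 ± 14.6 (SD) per autosome over 19 autosomes. Chromosome 11 had the most, 57 of its 1050 peaks (5.43%), followed by chromosome 2 with 52 of 1316 (3.95%), and chromosome 15 the fewest, 3 of 553 (0.542%). The number of annotated noncoding genes differed too, and as a share of eligible genes, the values were 5.50% on chromosome 6, 5.22% on chromosome 11, 3.69% on chromosome 2 and 0.784% on chromosome 15. Of the noncoding-promoter peaks 47.1% lay within 10 kb of the next peak, compared with 41.5% of all autosomal peaks. For peaks at no promoter this was 49.5% and for peaks at 1 coding promoter 33.1%.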

How the data were processed

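ChIP-seq for tagged RIF1 was done in 4 libraries, 2 of Rif1FH and 2 of Rif1WT. According to the submitters' processing notes and methods, reads were trimmed with Trim Galore 0.6.4 and aligned to mm9 with Bowtie 1.0.0, keeping unique alignments, after which each replicate was searched for narrow and broad enrichment with MACS2 2.2.6 and for domains with EDD. Intervals were merged with bedtools 2.27.1 and kept where called in both replicates. The calling thresholds are not given in the sources used here. The authors deposited 1 list of positions (start and end in base pairs, in no other unit), so depth is unknown. The antibody label names anti-CD43 MicroBeads, while the protocol names anti-HA.

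Intervals under 50 kb on the 19 autosomes were assigned to 5′ ends of GENCODE M1 (NCBIM37, which is mm9) with Python 3.11.15, pandas 2.3.3, numpy 2.4.6 and scipy 1.17.1. Where a share is given with an interval, it is a Wilson 95% interval. Base composition was read from mm9, and class medians per autosome were compared by a two-sided sign-flip permutation test (100000 resamples) with Benjamini-Hochberg adjustment over 4 tests. The scripts were tested on simulated intervals and differences. Genes were named where they stood on lists of B cell miRNAs, snoRNA hosts, regulatory long noncoding RNAs, polymerase III RNAs and miRNA hosts, where they had the widest or most centred peaks of their type, or where they had most peaks. None of the 7 symbols of the polymerase III list is in the annotation. The members and lists were chosen with earlier results of these data known. Alternatives changed the windows, gene types, widths and chromosomes.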

Additional observations from a re-analysis of the deposited data

Results flagged for a closer look

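Peaks on the X chromosome enter no comparison above, and by the same definition 24 of the 408 peaks there (5.88%, Wilson 95% interval 3.98 to 8.60) lay at noncoding promoters only. They include a peak of 1122 bp at Xist (chrX:100676500-100677621), the RNA that silences the inactive X, and one of 1788 bp at the neighbouring Enox. A peak of 3145 bp (chrX:50096385-50099529) met Mir106a, Mir18b and Kis2. According to the study's methods mice of both sexes were used, without the sex behind each library, and the X and autosomal shares were not compared by a test.

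Wide intervals of 50 kb or more were also left out of the counts. Of the 285 on autosomes, with a median width of 580 kb, 264 held the 5′ end of at least 1 noncoding gene. They cover Malat1 and Neat1, RNAs of nuclear speckles and paraspeckles, and 81 of the 142 heavy chain segments, and whether single promoters within them are occupied cannot be read from the list.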

How the results depend on the processing

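Every count rests on 1 list without values per library, so no result has a replicate error, leaving out a replicate was not possible, and the calling threshold could not be varied. No paired analysis was possible because both Rif1FH replicates are combined in the intervals, although the genotypes share replicate numbers. In 11 of 84 comparisons with an alternative, a share left the Wilson interval of the reported share or the number of peaks moved by over 1.5 times. Averaged over autosomes, the 4 composition differences kept direction and significance under all alternatives run. GC content against coding-promoter peaks ranged from -7.45 to -3.93 and against peaks at no promoter from 2.09 to 3.79. Observed over expected CpG ranged from -0.262 to -0.183 and from 0.131 to 0.188. Not every alternative held on all autosomes. In the 300 bp at the peak midpoint, GC content was higher than at peaks at no promoter on 15 of 19. The largest adjusted p was 6.60e-04. This includes promoter peaks that hold a 5′ end (-3.94 and 3.32 for GC content), an alternative chosen after seeing the data, as were those without immunoglobulin-type segments (383 peaks), without genes that RefSeq lists as coding (369 peaks) and outside wide intervals.

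The share of eligible genes with a peak, 3.62%, became 3.09% with windows of 0.5 kb, 4.29% with windows of 2 kb, 2.82% where the peak midpoint had to lie in the window, 4.72% without pseudogenes, 4.54% without small RNA genes and 4.21% outside wide intervals. Peaks at or above the median width gave 213 peaks, 2.03% of eligible genes, 55.9% upstream and 11.7% within 5 kb of a coding 5′ end, which by construction are fewer peaks. Windows of 2 kb gave 10.5% within 5 kb. The number of peaks ranged from 213 to 466, the upstream share from 47.3% to 55.9%, and so lay on either side of an even split. Matching list symbols through RefSeq names, chosen after seeing the data, gave 30.4% of regulatory long noncoding RNAs with a peak in place of 35.7%.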
